A study of Mus musculus with 89 samples.

Results

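Khdc3 and 5 other genes whose products form the subcortical maternal complex (Ooep, Tle6, Nlrp5, Nlrp4f and Padi6) were followed in mouse embryonic stem cells (ESCs) that had lost the nuclear receptors Esrrb, Nr5a2 or both. These 6 rows, selected by gene symbol, were 6 of 54146 gene rows. Khdc3 was selected for its large fall after loss of both factors, so every value of Khdc3 in the double-loss libraries is given as a description, with no test. The other 5 genes were taken because they belong to the same complex.

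RNA-seq was measured in 20 libraries of EKOiE ESCs, which lack the endogenous Esrrb gene and in which a transgene induced by doxycycline (Dox) supplies the protein. Cells were cultured in FCS/LIF (fetal calf serum and leukaemia inhibitory factor, 2 replicates per state) or in 2i/LIF (inhibitors of Mek and Gsk3 with the same cytokine, 3 replicates per state). The control state, +E+N, was EKOiE with Dox at 1 µg/ml, and −E was the same line 2 days after the drug was removed. The state −N was EKOiE NrKO, a derivative in which the exon coding for the DNA-binding domain of Nr5a2 is disrupted on both alleles, kept in Dox. The state −E−N was EKOiE NrKO 2 days after Dox removal. All 8 groups therefore lack endogenous Esrrb, and Esrrb in +E+N and −N comes from the transgene. The −N and −E−N libraries come from EKOiE NrKO cells and the others from their parent, so that loss of Nr5a2 and any other difference between these lines cannot be told apart. All −E and −E−N libraries lacked Dox and all +E+N and −N libraries had it. Loss of Esrrb and any other effect of removing the drug therefore cannot be told apart. The study selected NrKO clones 2 and 4 and names clone 4 for an RNA-seq check of the disrupted alleles, and the labels do not name a clone for each library.

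The subcortical maternal complex is a protein assembly under the membrane of the growing oocyte, inherited by the early embryo, and loss of its subunits in the mother arrests or delays embryos in their first divisions. Nlrp5 (also called MATER) and Tle6 are structural subunits, Ooep (FLOPED) and Khdc3 (FILIA) are small proteins with a KH-like RNA-binding fold, and Nlrp4f and Padi6 were added to the complex later. In ESCs, Khdc3 is known for a role in DNA repair and genome stability. Esrrb and Nr5a2 are orphan nuclear receptors that bind DNA as monomers at an extended half-site, TCAAGGTCA or TCAAGGCCA.

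The promoters of Khdc3 and Ooep are shown because these were the members that were lower in every loss state in both media. This choice was made after the values were seen. Each window runs from 250 bases before to 50 bases after the transcription start, 5′ to 3′ on the strand of the gene, as given by RefSeq on GRCm38.p6 (mm10). The Khdc3 window lies at chr9:73102148-73102447 on the plus strand, and the Ooep window at chr9:78378539-78378838 on the minus strand. Capitals mark the match to the half-site, read here on the opposite strand.
Khdc3: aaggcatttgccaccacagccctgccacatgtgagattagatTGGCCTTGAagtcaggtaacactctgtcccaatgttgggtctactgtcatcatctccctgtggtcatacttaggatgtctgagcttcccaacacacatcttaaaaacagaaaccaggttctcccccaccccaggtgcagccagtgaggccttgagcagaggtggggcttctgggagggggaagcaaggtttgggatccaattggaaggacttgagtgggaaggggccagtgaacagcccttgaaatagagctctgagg
Ooep: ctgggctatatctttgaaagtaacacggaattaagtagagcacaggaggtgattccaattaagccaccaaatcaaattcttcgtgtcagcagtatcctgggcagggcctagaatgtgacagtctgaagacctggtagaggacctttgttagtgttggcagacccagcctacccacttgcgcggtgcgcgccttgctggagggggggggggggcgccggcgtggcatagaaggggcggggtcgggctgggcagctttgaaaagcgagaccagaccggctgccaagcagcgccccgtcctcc

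The windows of all 6 members were searched on both strands for TCAAGGTCA and TCAAGGCCA and for their last 7 bases, AAGGTCA and AAGGCCA, which overlap the longer forms. Khdc3 held TCAAGGCCA from 208 to 200 bases before its start (chromosome 9, 73102190 to 73102198), a form found in 0.591% of 32851 promoter windows of the same length. The form with T was found in 0.423% of them. Padi6 held the shorter AAGGCCA from 19 to 13 bases before its start, a form found in 6.2% of windows. No match was found in the windows of Ooep, Tle6, Nlrp5 or Nlrp4f, which covers these letters in these 300 bases alone. In the GENCODE vM21 annotation, Khdc3 (ENSMUSG00000092622) spans 73101836 to 73104438 of chromosome 9, a span that begins before the RefSeq start. Ooep (ENSMUSG00000032346) spans 78376109 to 78378725 of the same chromosome, Tle6 (ENSMUSG00000034758) 81590904 to 81601073 of chromosome 10, Nlrp5 (ENSMUSG00000015721) 23385889 to 23441922 of chromosome 7, Nlrp4f (ENSMUSG00000032999) 65177111 to 65205977 of chromosome 13, and Padi6 (ENSMUSG00000040935) 140727355 to 140742643 of chromosome 4. All are protein-coding.

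The libraries held 36514172 to 45443379 counts in FCS/LIF and 26653035 to 32526534 in 2i/LIF. Esrrb transcript in −E−N was 30.1 ± 1.72 CPM (counts relative to the library total, scaled by the trimmed mean of M-values) in FCS/LIF (SD, n = 2) against 312 ± 57.7 in +E+N, and 145 ± 36.2 in 2i/LIF (SD, n = 3) against 576 ± 52.9. In −E it was 69.7 ± 6.44 in FCS/LIF (n = 2) and 418 ± 33.2 in 2i/LIF (n = 3). Nr5a2 transcript in −N was 26.4 ± 1.14 CPM against 38.0 ± 2.65 in FCS/LIF (n = 2), and 68.9 ± 8.27 against 70.9 ± 9.20 in 2i/LIF (n = 3). Its mean was also below the controls in −E, at 19.45 ± 0.305 CPM in FCS/LIF (n = 2) and 47.0 ± 4.99 in 2i/LIF (n = 3). These counts cover the whole gene and include whatever the disrupted alleles still transcribe, so they do not check loss of the proteins. The summed level of 9 ESC markers was highest in +E+N, at 4374 to 4688 CPM in FCS/LIF and 5624 to 5773 in 2i/LIF, and lowest in −E−N, at 2121 to 2319 and 2282 to 3098. Of 8 oocyte markers, 7 were under 1 CPM in all libraries and Oosp1 was at 0 throughout. Their summed level was 2.15 to 15.1 CPM, to which Zp3, a zona pellucida glycoprotein, gave 1.81 to 14.4 CPM.

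Khdc3 was the member that varied most between the groups. In FCS/LIF, the +E+N libraries held 18.1 and 15.4 CPM, those of −E 3.64 and 2.74, those of −N 4.91 and 2.64, and those of −E−N 0.289 and 0.470. In 2i/LIF, the +E+N libraries held 48.3, 47.1 and 50.9 CPM, those of −E 12.8, 13.5 and 9.91, those of −N 1.45, 3.47 and 4.12, and those of −E−N 0.0658, 0.141 and 0.135. The double-loss values rested on 11 and 19 counts in FCS/LIF and on 2, 4 and 4 counts in 2i/LIF. No library of a loss state overlapped the controls of its medium, and in both media each single-loss library lay between the controls and the double loss. In bulk RNA, fewer cells that express a gene and less RNA per cell cannot be told apart.

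**Figure D1:**
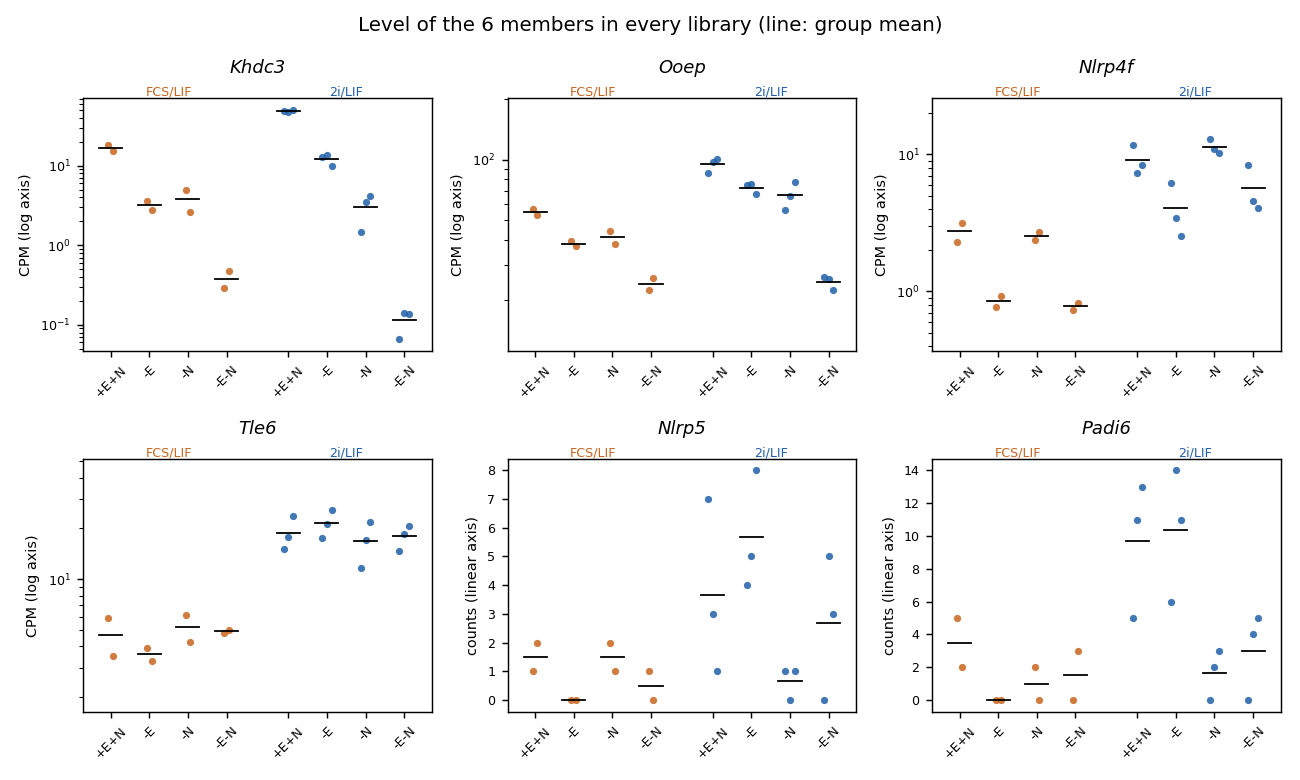
Level of each member by library in the 8 groups: CPM on a log axis for Khdc3, Ooep, Nlrp4f and Tle6, and counts on a linear axis for Nlrp5 and Padi6; points are libraries and lines are group means. Khdc3 fell from 48.8 to 0.114 CPM in 2i/LIF between +E+N and −E−N, Tle6 overlapped its controls in CPM in every loss state, and Nlrp5 and Padi6 had at most 8 and 14 counts in a library.

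As a description of the double loss that chose the gene, the −E−N level of Khdc3 was 43.6-fold below that of +E+N in FCS/LIF (95% interval 30.4 to 64.9, exact, for counting error only, from 1364 against 30 counts). In 2i/LIF it was 431-fold lower (interval 234 to 899, from 4233 against 10 counts). Expressed against the control mean, 2.27% of the level remained in FCS/LIF and 0.234% in 2i/LIF. The single losses left 19.0% (−E) and 22.5% (−N) in FCS/LIF, and 24.8% (−E) and 6.18% (−N) in 2i/LIF. On the TPM scale, which divides by transcript length, the order of the group means of Khdc3 was 41.9 ± 3.10 (2i/LIF +E+N), 14.4 ± 1.34 (FCS/LIF +E+N), 9.89 ± 1.40 (2i/LIF −E), 3.35 ± 1.31 (FCS/LIF −N), 2.92 ± 0.601 (FCS/LIF −E), 2.65 ± 1.33 (2i/LIF −N), 0.345 ± 0.106 (FCS/LIF −E−N) and 0.110 ± 0.0500 (2i/LIF −E−N), with SD over 2 libraries in FCS/LIF and 3 in 2i/LIF. Of the neighbours in that order, FCS/LIF −N, FCS/LIF −E and 2i/LIF −N overlapped. The control level was thus higher in 2i/LIF than in FCS/LIF, while the double-loss level was lower in 2i/LIF.

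The remaining tests asked how the members responded to each loss. Counts were fitted with the quasi-likelihood test of edgeR in each medium, over genes with at least 20 counts in every replicate of at least 1 state, and a gene was called when its Benjamini-Hochberg adjusted p was under 0.01 and its change over 1.5-fold. Khdc3, Ooep, Tle6 and Nlrp4f passed this filter in both media, whereas Nlrp5 and Padi6 did not. The comparisons with +E+N share the control libraries that also entered the choice of Khdc3, and they share these libraries with each other. The p-values and calls of Khdc3 against +E+N, and in the responses between media, are therefore not independent of that choice. Counts of members called that include Khdc3 in these comparisons carry the same limit.

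Loss of Esrrb alone lowered Khdc3 in both media. Nlrp4f, an NLR-family subunit of the complex, was called lower in FCS/LIF. In 2i/LIF it was not called in the main edgeR fit. There it was called lower by DESeq2, with no filter on low counts and in the fit blocked on replicate number. In FCS/LIF, 2 of the 4 members tested were called, against 5.76% of the genes tested. Khdc3 changed by -2.41 on the log2 scale (SE 0.275, edgeR adjusted p = 0.000591), a 5.31-fold fall. Without −E replicate 2 the edgeR adjusted p was 0.0125 at -2.22. Nlrp4f changed by -1.70 (SE 0.242, edgeR adjusted p = 0.00187), or 3.25-fold, from 2.30 and 3.17 CPM in +E+N to 0.774 and 0.930 in −E. This call was lost without +E+N replicate 2 (edgeR adjusted p = 0.0101), without −E replicate 1 (0.0235) and without −E replicate 2 (0.0182).

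In 2i/LIF, 1 member, Khdc3, was called in −E, against 1.55% of the genes tested. Its log2 change was -2.01 (SE 0.236, edgeR adjusted p = 0.000507), a 4.03-fold fall. Nlrp4f stood at 11.6, 7.36 and 8.29 CPM in +E+N and at 6.18, 3.45 and 2.53 in −E. Each −E library of Nlrp4f lay below the control of its own replicate number. The log2 change of -1.16 (SE 0.332) had an edgeR adjusted p of 0.0616. A fit blocked on replicate number gave -1.20 and an edgeR adjusted p of 0.000588. For neither gene was a difference between the media in the response to −E called, a comparison in which no member was called against 1.06% of the genes tested (0 of the 4 tested had an unadjusted p under 0.05 by edgeR, at 2834 genes in all, and DESeq2 called 0). The log2 response of Khdc3 in FCS/LIF minus that in 2i/LIF was -0.38 (95% interval -1.21 to 0.46), and that of Nlrp4f was -0.51 (-1.58 to 0.55).

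Loss of Nr5a2 alone lowered Khdc3 in 2i/LIF, while the CPM of Nlrp4f and Tle6 overlapped their controls in both media. In TPM, the 2i/LIF −N libraries of Nlrp4f (7.90, 6.37 and 6.40) lay above the controls (5.43, 5.36 and 4.82). In 2i/LIF, Khdc3 was the 1 member called, against 3.65% of the genes tested, with a log2 change of -4.02 (SE 0.267, edgeR adjusted p = 3.31e-06), a 16.2-fold fall. The lowest −N library was replicate 1, and without it the change was -3.69. In FCS/LIF no member was called, against 0.173% of the genes tested. Khdc3 changed there by -2.18 (SE 0.271), a 4.52-fold difference whose edgeR adjusted p of 0.0106 missed the limit of 0.01. Its unadjusted p was 2.29e-05, 2550 genes had an unadjusted p under 0.05, and DESeq2 called 1 member, Khdc3 (adjusted p = 3.16e-13). Without −N replicate 1, edgeR called it as well (adjusted p = 0.00745).

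The response of Khdc3 to −N was larger in 2i/LIF than in FCS/LIF by 1.86 on the log2 scale (SE 0.411, 95% interval 1.00 to 2.73), with an edgeR adjusted p of 0.0205 that missed the limit. No member was called in this comparison, against 0.743% of the genes tested, while 2476 genes had an unadjusted p under 0.05 and DESeq2 called Khdc3 (adjusted p = 0.00157). Over its alternatives the edgeR or DESeq2 adjusted p lay between 3.32e-11 and 0.164. The highest was without FCS/LIF −N replicate 1.

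The single losses were also compared with each other, a comparison added after the values had been seen, in which neither group entered the choice of Khdc3. In 2i/LIF, Khdc3 was higher in −E than in −N by 2.01 on the log2 scale (SE 0.260, edgeR adjusted p = 0.000445), or 4.03-fold, and it was the 1 member called, against 3.94% of the genes tested. The 3 −E libraries lay at 9.91 to 13.5 CPM and the 3 −N libraries at 1.45 to 4.12, with no overlap. In FCS/LIF, Khdc3 differed by -0.23 between −E and −N (95% interval -0.88 to 0.41), within the spread of its libraries. There the 1 member called, against 4.42% of the genes tested, was Nlrp4f, lower in −E (log2 difference -1.57, SE 0.242, edgeR adjusted p = 0.00352). That call was lost without −E replicate 1 (edgeR adjusted p = 0.0393), without −E replicate 2 (0.0273) and without −N replicate 2 (0.0175). In 2i/LIF, the difference of Nlrp4f between −E and −N was -1.47 (SE 0.333), with an edgeR adjusted p of 0.0127, and of 4.63e-05 in the fit blocked on replicate number.

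**Figure D2:**
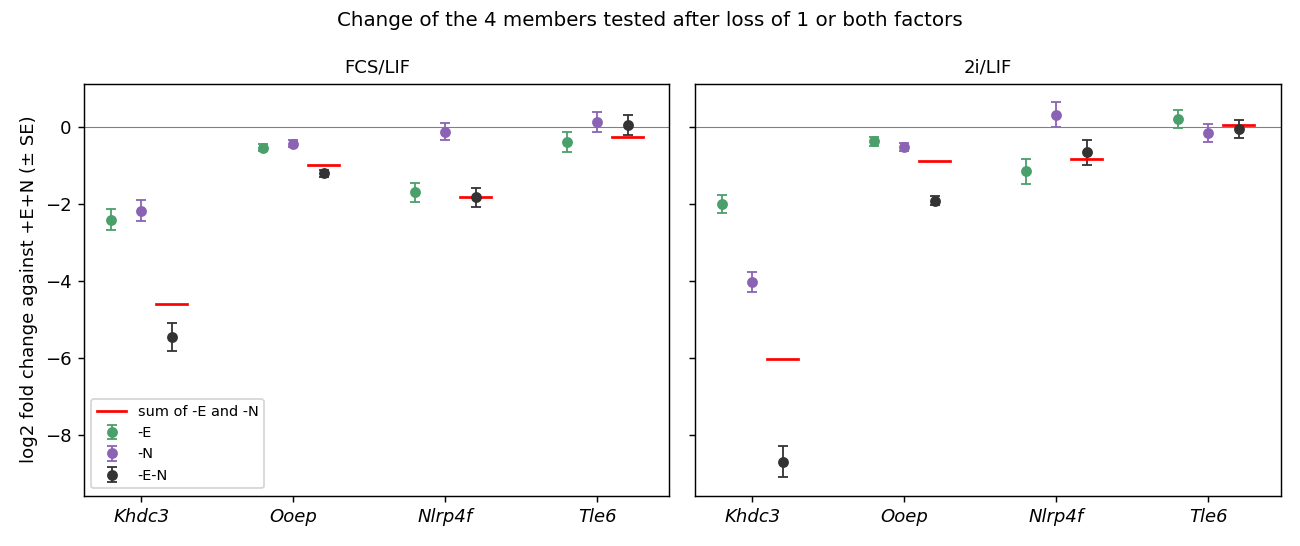
Log2 fold change against +E+N (points, with SE bars) of the 4 members that passed the filter, in −E, −N and −E−N of each medium; red lines give the sum of the −E and −N changes. The double loss of Khdc3 lay below its sum in both media (-5.46 against -4.58 and -8.68 against -6.03), that of Ooep lay below it in 2i/LIF (-1.92 against -0.90), and Tle6 stayed near 0.

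Ooep, the KH-fold partner of Khdc3 in the complex, fell in the double loss in both media and in no single loss past the call. In FCS/LIF, the +E+N libraries held 57.1 and 52.8 CPM, those of −E 39.3 and 37.0, those of −N 44.3 and 37.9, and those of −E−N 22.5 and 25.6. In 2i/LIF, the +E+N libraries held 85.3, 97.6 and 101 CPM, those of −E 74.6, 75.2 and 67.7, those of −N 56.1, 65.7 and 77.1, and those of −E−N 26.2, 25.5 and 22.4. Every loss library lay below the controls of its medium, the −E and −N libraries overlapped each other, and every −E−N library lay below both. In FCS/LIF, the −E change was -0.54 (SE 0.0951, edgeR adjusted p = 0.00497), a 1.46-fold difference that did not reach the fold limit, and the −N change was -0.44 (SE 0.0948, adjusted p = 0.0566). In 2i/LIF, these were -0.38 (SE 0.110, edgeR adjusted p = 0.0631) and -0.52 (SE 0.110, adjusted p = 0.0101).

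Of the 3 members tested other than Khdc3, 2 were called in −E−N against +E+N in FCS/LIF, against 18.8% of the genes tested. In 2i/LIF 1 was called, against 18.6%. Ooep changed by -1.21 in FCS/LIF (SE 0.0978, edgeR adjusted p = 2.85e-05), or 2.31-fold, and by -1.92 in 2i/LIF (SE 0.115, adjusted p = 1.94e-07), or 3.79-fold. Both calls held under each alternative and without each library. The other member called in FCS/LIF was Nlrp4f, which changed by -1.83 (SE 0.247, edgeR adjusted p = 0.000439), or 3.56-fold, to 0.736 and 0.816 CPM. In 2i/LIF, Nlrp4f stood at 8.42, 4.59 and 4.06 CPM in −E−N, which overlapped the controls, and changed by -0.66 (95% interval -1.37 to 0.04, edgeR adjusted p = 0.124). The summed ESC markers were also lower in −E−N in both media. The summed oocyte markers were lower in FCS/LIF (2.15 to 2.97 CPM against 4.47 to 7.74) and overlapped the controls in 2i/LIF (7.17 to 15.1 against 8.12 to 11.4). The summed level of 5 trophectoderm markers was higher in −E−N than in the controls, at 123 to 139 against 72.7 to 81.6 CPM in FCS/LIF. In 2i/LIF it was 135 to 187 against 78.6 to 96.8 CPM. Within that sum, Tfap2c gave 60.2 to 128 CPM over all libraries, Cdx2 0.669 to 53.3 and Elf5 at most 1.66. The summed level of 5 fibroblast markers was 10.7 to 12.9 against 6.69 to 8.26 CPM in FCS/LIF. In 2i/LIF it overlapped the controls, at 1.48 to 2.37 against 1.82 to 4.18 CPM. The part of these markers' cells in the falls of Ooep and Nlrp4f was not tested.

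Ooep was also lower after the double loss than after either single loss. Against −N, 2 of the 3 members tested other than Khdc3 were called in FCS/LIF (10.1% of the genes tested). These were Ooep at -0.77 (SE 0.0978, edgeR adjusted p = 0.000662) and Nlrp4f at -1.70 (SE 0.247, adjusted p = 0.00129). The Nlrp4f call was lost without −E−N replicate 1 (edgeR adjusted p = 0.0125) and without −E−N replicate 2 (0.0130). In 2i/LIF, 1 was called against −N (6.76% of the genes tested), Ooep at -1.40 (SE 0.114, edgeR adjusted p = 1.48e-05), while Nlrp4f at -0.98 had an edgeR adjusted p of 0.0535, and of 0.000532 in the fit blocked on replicate number. Against −E, Ooep was the 1 member called in both media. It changed by -0.67 in FCS/LIF (SE 0.0980, edgeR adjusted p = 0.00266, 5.05% of the genes tested called) and by -1.54 in 2i/LIF (SE 0.115, adjusted p = 1.88e-06, 13.1% called). In FCS/LIF this call was lost without any 1 of the 4 libraries, with edgeR adjusted p of 0.0362 and 0.0157 without −E replicates 1 and 2, and of 0.0171 and 0.0162 without −E−N replicates 1 and 2. Nlrp4f did not differ past the limit between −E−N and −E, at -0.13 in FCS/LIF (95% interval -0.75 to 0.48) and 0.50 in 2i/LIF (-0.23 to 1.22).

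Whether the double loss exceeded the sum of the single losses was tested as an interaction, for which the limit was an adjusted p of 0.01 alone. In 2i/LIF, 1 of the 3 members tested other than Khdc3, Ooep, was called, against 0.307% of the genes tested. Its −E−N change lay below the sum of the single changes (log2 interaction -1.02, SE 0.158, edgeR adjusted p = 0.00935, DESeq2 adjusted p = 6.27e-07). The value moved between -1.13 and -0.90 when 1 library was left out, and the edgeR call was lost without 11 of the 12 libraries, every one but −N replicate 1, with adjusted p between 0.0135 and 0.0306. In FCS/LIF no member was called, against 0.032% of the genes tested (5 genes, with 1384 at an unadjusted p under 0.05, and no member called by DESeq2). The interaction of Ooep was -0.23 there (95% interval -0.54 to 0.08). As a description, that of Khdc3 was -0.88 in FCS/LIF (SE 0.496) and -2.65 in 2i/LIF (SE 0.589), and the first moved between -1.31 and -0.37 when 1 library was left out.

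Ooep also fell more in 2i/LIF than in FCS/LIF after the double loss. The log2 response in FCS/LIF minus that in 2i/LIF was 0.74 (SE 0.167, edgeR adjusted p = 0.00382). Ooep was the 1 member called of the 3 tested other than Khdc3, against 13.2% of the genes tested. This call was lost without FCS/LIF +E+N replicate 1 (edgeR adjusted p = 0.0108), FCS/LIF +E+N replicate 2 (0.0250), FCS/LIF −E−N replicate 2 (0.0380), 2i/LIF +E+N replicate 2 (0.010), 2i/LIF +E+N replicate 3 (0.0104) or 2i/LIF −E−N replicate 3 (0.0108). The end levels of Ooep were close, at 16.3 ± 1.29 TPM in FCS/LIF −E−N (SD, n = 2) and 15.0 ± 1.13 in 2i/LIF −E−N (n = 3), whose libraries overlapped. The control levels were 33.7 ± 0.658 (n = 2) and 56.9 ± 6.69 (n = 3). The corresponding difference for Khdc3, as a description, was 3.26 on the log2 scale, and Nlrp4f went the other way at -1.14 (SE 0.510, edgeR adjusted p = 0.12).

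Tle6, a subunit related to the Groucho co-repressors, did not move with either factor past the test. In FCS/LIF, the +E+N libraries held 5.86 and 3.53 CPM, those of −E 3.92 and 3.29, those of −N 6.14 and 4.26, and those of −E−N 4.81 and 5.00. In 2i/LIF, it ranged from 15.2 to 23.6 CPM in +E+N, from 17.5 to 25.9 in −E, from 11.7 to 22.0 in −N, and from 14.7 to 20.6 in −E−N. All loss states overlapped the controls of their medium in CPM, although in TPM the FCS/LIF −E libraries (5.33 ± 0.700, SD, n = 2) lay below those of +E+N (8.33 ± 1.99). The log2 change in −E−N was 0.05 in FCS/LIF (95% interval -0.53 to 0.63) and -0.05 in 2i/LIF (-0.55 to 0.45).

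Nlrp5 and Padi6 were close to undetected in all groups. Nlrp5, a subunit without which the complex does not form in oocytes, had 0 to 2 counts per library in FCS/LIF and 0 to 8 in 2i/LIF. Padi6, a member of the peptidylarginine deiminase family needed for the cytoplasmic lattices of the oocyte, had 0 to 5 counts in FCS/LIF and 0 to 14 in 2i/LIF. Among 2i/LIF libraries, those of +E+N held 5, 11 and 13 counts of Padi6, those of −E 6, 14 and 11, those of −N 0, 2 and 3, and those of −E−N 0, 4 and 5. Its −N libraries lay below the controls, but with no filter on low counts the log2 change of -2.37 (SE 0.853) had an edgeR adjusted p of 0.113. Neither gene was called in any comparison when the filter was removed, and a difference between the states was not detectable at this depth.

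The 4 members that passed the filter were all higher in 2i/LIF than in FCS/LIF in +E+N. Tle6, Nlrp4f and Ooep were called, while 34.7% of the genes tested were called in either direction and 2780 of 16147 higher. Tle6 was higher by 2.01 on the log2 scale (SE 0.289, edgeR adjusted p = 1.46e-05), or 4.02-fold, and Nlrp4f by 1.73 (SE 0.349, adjusted p = 0.000415), or 3.32-fold. Ooep was higher by 0.78 (SE 0.118, edgeR adjusted p = 2.31e-05), or 1.72-fold. Both control groups entered the choice of Khdc3, whose difference of 1.54 (SE 0.279), or 2.91-fold, is given as a description, with no test. The Nlrp4f call was lost without FCS/LIF +E+N replicate 1 (edgeR adjusted p = 0.0116). Per length, Ooep was the highest member in both control groups, followed by Khdc3, at 39.7 to 45.5 TPM over its 2i/LIF libraries, and Tle6, at 18.0 to 38.8. Nlrp4f was at 5.20 ± 0.334 TPM in 2i/LIF and 1.96 ± 0.318 in FCS/LIF. No library links the media, so that medium and any other difference between the FCS/LIF and 2i/LIF sets cannot be told apart.

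Across the 20 libraries, the levels of Ooep followed those of Khdc3, while Tle6 and Nlrp4f did so less closely. On log2(CPM + 1), Pearson's r with Khdc3 was 0.888 for Ooep, 0.292 for Nlrp4f and 0.218 for Tle6. Within FCS/LIF (8 libraries), r was 0.976, 0.736 and 0.0193, and within 2i/LIF (12 libraries) 0.900, 0.101 and 0.252. The points share 8 groups of state and medium, Khdc3 was chosen for its pattern, and these values are given as a description. Tle6 and Nlrp4f went together with medium over all libraries (r = 0.703) but not within 2i/LIF (r = -0.659). In each 2i/LIF state, Tle6 was highest in replicate 3 and Nlrp4f in replicate 1, so differences between replicates enter the second value.

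Over the 11737 genes that averaged 100 counts or more, the 5 whose levels were most like those of Khdc3 were Map7, a microtubule-associated protein (r = 0.920), Ubr3, a ubiquitin ligase (0.916), Borcs5, a lysosome-positioning subunit (0.914), Chst3, a chondroitin sulfotransferase (0.909), and Dnajc7, a co-chaperone (0.909). Ooep ranked 14. The measure follows the shape of a profile and not its size. In 2i/LIF −E−N, Chst3 was left at 3.58% of its control mean, Map7 at 32.7%, Ubr3 at 51.9%, Dnajc7 at 69.4% and Borcs5 at 76.1%, against 0.234% for Khdc3 and 26.1% for Ooep. On log2(TPM + 1), Borcs5 dropped to rank 321. The genes most like Ooep were Mical1 (r = 0.971), Inhbb, the beta-B subunit of activin (0.969), and Pold2, a DNA polymerase subunit (0.961). For Tle6 they were Xlr5a and Xlr5b, whose near-identical sequences share reads, and Skap2 (all at 0.97 to 0.98). For Nlrp4f they were Srrm4os (0.959), Impa1 (0.956) and Twf1 (0.953).

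**Figure D3:**
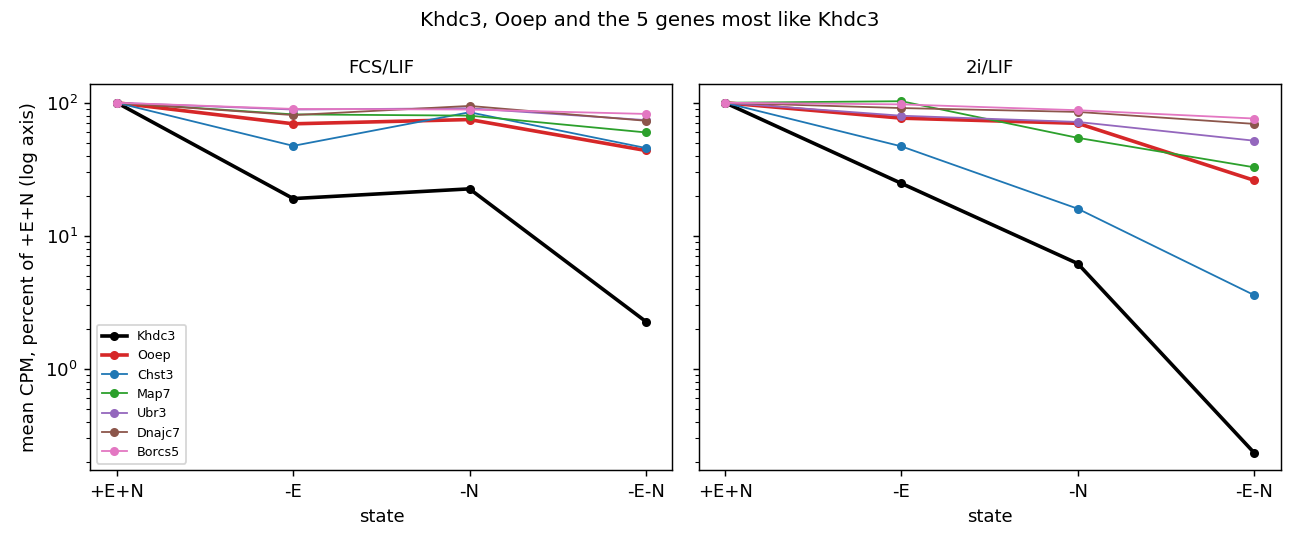
Mean CPM as percent of +E+N (log axis) of Khdc3, Ooep and the 5 genes most like Khdc3, by state, in FCS/LIF (left) and 2i/LIF (right); points are group means over 2 or 3 libraries. In 2i/LIF −E−N, Khdc3 was at 0.234%, Chst3 at 3.58% and Ooep at 26.1% of their controls.

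The KH-domain relatives of Khdc3 and Ooep went in both directions. These genes, Dppa5a, an RNA-binding protein abundant in ESCs, and Khdc1a, Khdc1b and Khdc1c, were 4 of the 5 listed relatives with a row in the table. Dppa5a alone passed the filter in FCS/LIF, and it was called lower in −E−N, at -0.91 (SE 0.0995, edgeR adjusted p = 0.000147), with 1545 ± 46.8 CPM in +E+N and 834 ± 41.7 in −E−N (SD, n = 2). In 2i/LIF, all 4 passed the filter, but the 3 Khdc1 genes did so only through their −E−N libraries. Their rise is therefore a description, and the list was not set against all genes. Dppa5a changed by -1.39 (SE 0.116, edgeR adjusted p = 2.22e-06), from 1589 ± 73.5 to 599 ± 114 CPM (n = 3).

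The Khdc1 genes, expressed in oocytes and 2-cell embryos, were near 0 in the controls and had at most 14 counts in any FCS/LIF library. In 2i/LIF, the +E+N libraries held 19, 1 and 0 counts of Khdc1a, those of −E 34, 15 and 31, those of −N 138, 15 and 4, and those of −E−N 449, 401 and 469. Khdc1c had 13, 0 and 3 counts in +E+N and 200, 175 and 246 in −E−N, and Khdc1b had 1, 0 and 1 and 63, 46 and 39. All −E−N libraries of the 3 genes lay above every other library. As a description, the log2 change in 2i/LIF −E−N against +E+N was 6.03 for Khdc1a (SE 1.08) and 5.26 for Khdc1c (SE 1.02). That of Khdc1b was 5.95 (SE 1.30), and its controls held 2 counts in all. The −E−N libraries alone brought these genes past the filter, so no p is given for their rise. Of the −N libraries, replicate 1 stood apart with 138 counts of Khdc1a and 65 of Khdc1c, and the same library had the lowest Khdc3. The 3 Khdc1 genes are close copies of each other, so the division of reads among them is uncertain. The summed level of 8 markers of 2-cell-like cells, a rare state of ESC cultures, was 8.38 to 14.04 CPM in the 2i/LIF +E+N libraries, 15.1 to 33.0 in those of −E, 33.6 to 79.8 in those of −N and 110 to 304 in those of −E−N. The FCS/LIF libraries of +E+N had a sum of 31.2 to 51.1 CPM, those of −E 65.1 to 111, those of −N 21.1 to 24.8 and those of −E−N 42.4 to 54.1. The FCS/LIF −E sum thus reached that of 2i/LIF −E−N, while Khdc1a had 7 and 14 counts in the former. The part of such cells in the rise of the Khdc1 genes was not tested.

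**Figure D4:**
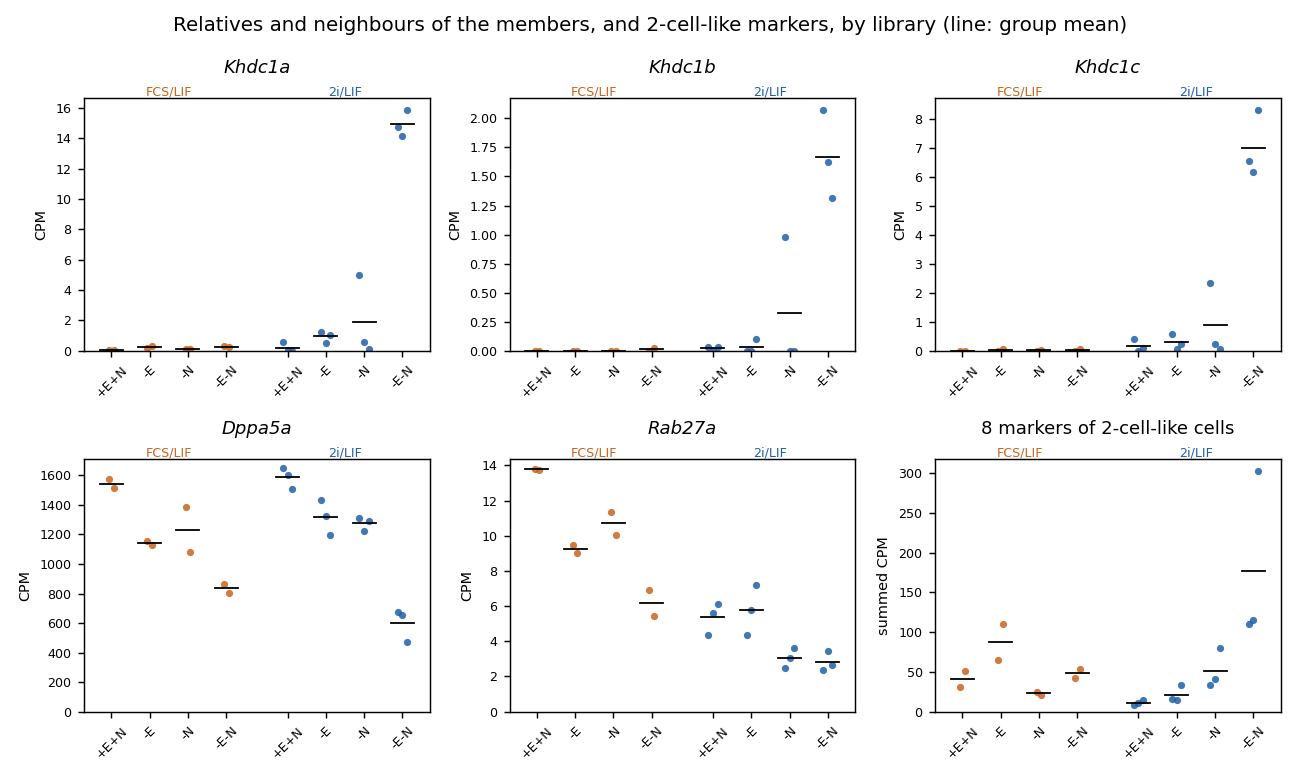
CPM by library (linear axes from 0) of Khdc1a, Khdc1b, Khdc1c, Dppa5a and Rab27a, and the summed CPM of 8 markers of 2-cell-like cells; points are libraries and lines are group means. The 3 2i/LIF −E−N libraries stand above all others for the Khdc1 genes (14.2 to 15.9 CPM for Khdc1a), whereas for the marker sum they (110 to 304 CPM) meet the FCS/LIF −E libraries (65.1 to 111 CPM).

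Among the Nlrp relatives, 20 genes of the NLR family that did not include the members, the double loss called 1 of 10 tested higher and 1 lower in FCS/LIF, and 1 of 7 higher and 1 lower in 2i/LIF, against 18.8% and 18.6% of all genes tested called in either direction. The medians were -0.47 and -0.31, against 0 and 0.010 over all genes. Nlrp9b was called higher in −E−N in both media, at 1.44 in FCS/LIF (SE 0.183, edgeR adjusted p = 0.000321) and 2.52 in 2i/LIF (SE 0.137, adjusted p = 9.76e-08), where it rose from 10.4 ± 1.03 to 59.2 ± 9.45 CPM (n = 3). Nlrp4a, which belongs to the same subfamily as Nlrp4f, was called lower in FCS/LIF at -1.54 (SE 0.222, edgeR adjusted p = 0.000618) and stood at 0.29 in 2i/LIF (adjusted p = 0.225). Nlrc3, a negative regulator of innate signalling, was called lower in 2i/LIF at -1.80 (SE 0.344, edgeR adjusted p = 0.00120).

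Of the relatives of Tle6 and Padi6, 8 of 10 were tested in each medium, of which 1 was higher and 2 were lower after the double loss in FCS/LIF, and 1 higher and 3 lower in 2i/LIF, against the same 18.8% and 18.6%. The medians were -0.15 and -0.31. Aes (also Tle5), a Groucho-related protein without the repeats that bind repressed targets, was the lowest, at -1.98 in FCS/LIF (SE 0.0892, edgeR adjusted p = 1.61e-06) and -2.41 in 2i/LIF (SE 0.179, adjusted p = 9.23e-07). Padi4, which citrullinates histones, was called lower in both media, at -1.70 (SE 0.371, edgeR adjusted p = 0.00539) and -2.35 (SE 0.271, adjusted p = 2.82e-05), and Padi2 in 2i/LIF at -1.71 (SE 0.157, adjusted p = 4.98e-06). Tle3, a Groucho co-repressor, was called higher, at 0.67 in FCS/LIF (SE 0.131, edgeR adjusted p = 0.00311) and 0.59 in 2i/LIF (SE 0.106, adjusted p = 0.000763).

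The last list held maternal-effect and oocyte genes outside the complex, again beside 18.8% and 18.6% of all genes tested called. Of 48 listed, 21 were tested in FCS/LIF, of which 3 were called lower and none higher in −E−N, and 22 in 2i/LIF, of which 2 were called higher and 4 lower. Their median log2 changes were -0.20 and -0.07. Zfp57, which keeps methylation at imprinted loci, was called lower in both media, at -2.07 in FCS/LIF (SE 0.0533, edgeR adjusted p = 9.63e-08) and -0.73 in 2i/LIF (SE 0.116, adjusted p = 0.000306). Zp3 at -1.41 (SE 0.323, edgeR adjusted p = 0.00677) and Trim28, the co-repressor of Zfp57, at -0.64 (SE 0.125, adjusted p = 0.00310) were the others in FCS/LIF. In 2i/LIF, the largest changes were the rises of Dppa3, which protects maternal methylation, at 3.43 (SE 0.359, edgeR adjusted p = 1.29e-05), from 11.4 ± 3.66 to 122 ± 11.8 CPM (n = 3), and of Dnmt3l, a cofactor of de novo methylation, at 1.79 (SE 0.208, adjusted p = 2.90e-05). Ago2, the slicer of small-RNA silencing, was called lower at -1.24 (SE 0.115, edgeR adjusted p = 5.13e-06).

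Khdc3 and Ooep lie on chromosome 9, and the genes near them were counted within 500 kb. Around Khdc3, 16 genes were tested in FCS/LIF and 13 in 2i/LIF, with 2 higher and 2 lower past the call after the double loss in each medium. The nearest of these, Rab27a, a vesicle-trafficking GTPase 4.21 kb from Khdc3, was called lower at -1.18 in FCS/LIF (edgeR adjusted p = 0.000183) and -0.90 in 2i/LIF (adjusted p = 0.00849). Unlike Khdc3, it was lower in 2i/LIF than in FCS/LIF in +E+N (log2 difference -1.36, edgeR adjusted p = 2.52e-05). Prtg and Gm27204 were called higher in both media, at 2.84 and 2.02 in FCS/LIF and 2.32 and 1.45 in 2i/LIF. Dyx1c1 was called lower in FCS/LIF at -0.95, and Ccpg1 in 2i/LIF at -1.07. Gm20509, annotated over Khdc3 on the same strand, had 0 to 3 counts per library, and the division of shared reads between them by the counting is uncertain. Around Ooep, 1 gene of 16 was called higher and 3 lower in FCS/LIF, and 1 of 17 higher and 6 lower in 2i/LIF. Over all genes tested, 18.8% were called in FCS/LIF and 18.6% in 2i/LIF, and whether the genes near Khdc3 or Ooep depart from this was not tested. Dppa5a, 7.93 kb from Ooep, and Gsta4, a glutathione transferase, were lower in both media, Eef1a1, a translation elongation factor, was lower in FCS/LIF, and Ddx43, Gsta2, Cgas and Gm10639 were lower in 2i/LIF at -1.32, -3.98, -1.51 and -3.36. The gene called higher in both, Gcm1, a trophoblast transcription factor 310 kb away, changed by 1.64 in FCS/LIF (edgeR adjusted p = 0.000302) and by 7.99 in 2i/LIF (adjusted p = 3.01e-08).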

How the data were processed

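RNA-seq of 20 mouse ESC libraries was used (8 in FCS/LIF, 12 in 2i/LIF). Per the study's methods, the libraries were stranded, poly(A)-selected and paired-end, and replicates were independent experiments. The authors aligned reads with STAR and deposited RSEM expected counts for mm10 genes, together with TPM, which RSEM normalized for transcript length and library. RSEM divides reads shared by near-identical genes between them, which makes such genes uncertain. ChIP-seq samples were not analysed here. The table held 54238 rows, of which 92 were ERCC spike-in rows with 0% of counts and were removed, and 54079 gene IDs matched GENCODE vM21. Totals were 36514172 to 45443379 counts (FCS/LIF, median 41205657) and 26653035 to 32526534 (2i/LIF, median 28675445). A count of 20 was under 1 CPM in every library.

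Expected counts were rounded and fitted in R 4.3.3 with edgeR 4.0.16 (quasi-likelihood test, trimmed mean of M-values), with the 4 states of each medium in 1 fit and all 20 libraries for comparisons between media. Genes with at least 20 counts in every replicate of at least 1 state were kept (15636, 14355 and 16147 genes). A gene was called at a Benjamini-Hochberg adjusted p under 0.01, over all genes tested, and a change over 1.5-fold, or at the adjusted p alone for interactions and for differences in response between media. Likeness was Pearson's r on log2(CPM + 1). Scripts were tested on simulated data. Alternatives were DESeq2 1.42.0, its size factors, no filter, no fold limit, a replicate block, a fit of all 20 libraries, each library left out, and log2(CPM + 0.1) or log2(TPM + 1) for likeness. No replicates were duplicates: their counts differed by a chi-square per degree of freedom of 4.28 to 28.3.

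In 2i/LIF, whether replicate numbers pair the libraries was read from the correlation of same-numbered deviations from the group means, decided before calls were compared. Each of the 3 pairs was over 0.1 for −E and +E+N (0.270 to 0.542), −N and +E+N (0.225 to 0.658), −E−N and −N (0.222 to 0.492), −E−N and −E (0.151 to 0.518) and −E and −N (0.189 to 0.481), but 2 of 3 for −E−N and +E+N (0.00733 to 0.424).

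The text names all 6 members, every KH-domain relative, the 3 called genes of each other list with the largest change in −E−N against +E+N in each medium, the 5 genes most like Khdc3 and 3 for each other expressed member, and the genes within 500 kb of Khdc3 or Ooep called in −E−N. Members and lists were chosen with earlier results of these data known.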

Additional observations from a re-analysis of the deposited data

Results flagged for a closer look

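The interaction of Esrrb and Nr5a2 loss on Ooep in 2i/LIF (log2 -1.02) stood out because the effect of Esrrb loss differed between cells with and without Nr5a2, tested as an interaction term. The response of Ooep to the double loss stood out because it differed between the media, by 0.74 on the log2 scale (FCS/LIF minus 2i/LIF), also tested as an interaction term. The edgeR call of the interaction was lost without 11 of the 12 libraries. That of the response between media was lost without each of the libraries named with the results.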

How the results depend on the processing

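DESeq2's size factors in edgeR changed no call of a member (72 of 72 values kept their call). Under DESeq2, 68 values kept their call and 4 gained one, with no filter 66 and 6, with the replicate block 61 and 7, with no fold limit 51 and 1 (Ooep in −E in FCS/LIF), and in 1 fit of all 20 libraries 52 kept it, 2 gained and 2 lost one. The cause of these changes was not tested. In FCS/LIF, the fit of all 20 libraries called 1 member in −E against +E+N (2.76% of genes) and 0 in −E against −N (1.9%). In −N against +E+N, DESeq2, no filter, the block and the fit of all 20 each called 1 member, Khdc3, with 1.69%, 1.85%, 1.95% and 0.105% of genes called. In 2i/LIF, DESeq2, no filter and the block each called 2 members in −E against +E+N (3.11%, 1.38% and 4.15% of genes) and in −E against −N (6.49%, 3.06% and 8.65%), where the fit of all 20 also called 2. No filter and the block called 2 in −E−N against −N (4.45% and 11.3%). The response to −N between the media had 1 member called by DESeq2, no filter and the block (2.82%, 2.55% and 4.25%), and the response to −E−N had 2 by no filter and the block (9.37% and 22.9%).

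For comparisons whose libraries are not shown to be paired, the replicate block called Khdc3 in FCS/LIF −N (adjusted p = 0.000201 by edgeR) and Nlrp4f in 2i/LIF −E−N against +E+N (-0.70, adjusted p = 0.00400 by edgeR), making 2 members called there. Besides these, the response differences above and the paired results given in the report, the block changed no other call. Of 36 pairs of a 2i/LIF library and another state, 34 correlated best with their own replicate number, a hint from the data and not from the design. Of the 5 genes most like Khdc3, 3 remained on log2(CPM + 0.1) and 3 on log2(TPM + 1).

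With 1 library left out, where an arm of 1 library was taken to vary like the others, members called ranged from 0 to 2 in FCS/LIF −E against +E+N, 0 to 1 in −N against +E+N, 1 to 2 in −E−N against −N, 0 to 0 in −E−N against −E, and 0 to 1 in −E against −N. In 2i/LIF they ranged from 1 to 2 in −N against +E+N and in −E against −N, from 0 to 1 for the interaction, and from 0 to 1 for the response to −E−N between media. A change of sign occurred in 31 cases over 17 values, of which 0 were called. For Tle6, these log2 changes ranged from -0.72 to 0.017 (−E), -0.19 to 0.54 (−N) and -0.27 to 0.46 (−E−N) against +E+N and from -0.32 to 0.20 for −E−N against −N in FCS/LIF, from -0.39 to 0.052 (−N) and -0.19 to 0.15 (−E−N) against +E+N and from -0.10 to 0.34 for −E−N against −N in 2i/LIF, from -0.097 to 0.64 (FCS/LIF) and -0.30 to 0.14 (2i/LIF) for the interaction, and from -0.030 to 0.71 (−N) and -0.20 to 0.54 (−E−N) for the response between media. For Nlrp4f, they ranged from -0.33 to 0.12 for −N in FCS/LIF, and for the interaction from -0.25 to 0.20 in FCS/LIF and from -0.21 to 0.64 in 2i/LIF. In −E against −N in FCS/LIF they ranged from -0.62 to 0.28 for Khdc3 and from -0.21 to 0.012 for Ooep, and the response of Ooep to −N between media ranged from -0.034 to 0.22.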
